A study of Mus musculus with 19 samples.

Results

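Of the 19 RNA sequencing libraries, 6 came from the prefrontal cortex, 3 of SCA17 knock-in (KI) mice and 3 of age-matched WT mice, and the comparison of these groups over all genes is described here. The libraries were chosen by region and genotype as the sample labels give them, and of the 41128 genes counted, 16841 had enough reads to be tested. In SCA17 KI mice the TBP protein (TATA box-binding protein) has a lengthened polyglutamine tract from the germline on, here on the C57BL/6 background, and all mice were 3 months old. The mutant allele is therefore present in every cell of the tissue, and neurons, glia and blood vessels were sequenced together. The other libraries came from the striatum (3 KI and 3 WT) and the cerebellum (4 KI and 3 WT) and serve here for comparison. Trizol-extracted RNA was turned into full-length cDNA with the SMART-Seq v4 kit, and the libraries held 10639110 to 16737744 counted reads in KI and 14719467 to 15296355 in WT prefrontal cortex. The study used 3 to 4 mice per genotype, and the labels do not say whether libraries of different regions came from the same mice.

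TBP is the subunit of TFIID that binds the TATA box and helps to place RNA polymerase II at the start of genes, and its polyglutamine expansion causes spinocerebellar ataxia type 17. Of the 18 genes past the threshold described below, 13 were in lists of the type I interferon pathway. In that pathway, sensors of foreign or misplaced nucleic acid induce interferons, interferon receptors act through JAK kinases, and a transcription factor complex that contains STAT2 and IRF9 then binds interferon-stimulated response elements and switches on antiviral effector genes. In bulk tissue, a change in the number of cells of a type and a change in the RNA per cell cannot be told apart.

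Markers of the tissue were checked first. Slc17a7, the vesicular glutamate transporter of cortical excitatory neurons, lay between 958 and 1551 CPM (reads of a gene relative to the TMM-scaled library total) in the 6 prefrontal libraries, and Tbr1, a transcription factor of deep-layer neurons, between 93.6 and 151 CPM. Pcp2, a Purkinje cell gene of the cerebellum, was at or below 0.472 CPM in the 6 prefrontal libraries. WT replicate 3 stood apart from the rest. Its summed level over 27 listed olfactory bulb genes was 2406 CPM, whereas the other 5 libraries lay between 553 and 737 CPM. Th, the dopamine synthesis enzyme of periglomerular neurons, was at 171 CPM in this library and between 1.35 and 5.50 CPM in the others. Eomes, a transcription factor of mitral and tufted cells, was at 30.0 CPM against at most 0.407 CPM. In this library 58 genes were at least 4 times above every other prefrontal library, and 11 of them were in the olfactory bulb list, whereas the other libraries had 1 to 6 such genes. Its value is therefore shown for the genes described below, and results that lost their call or moved strongly without it are given both ways. Y-linked reads marked KI replicates 1 and 2 and WT replicate 1, and Xist reads marked the other 3, so the groups also differed in sex by 1 mouse.

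**Figure D1:**
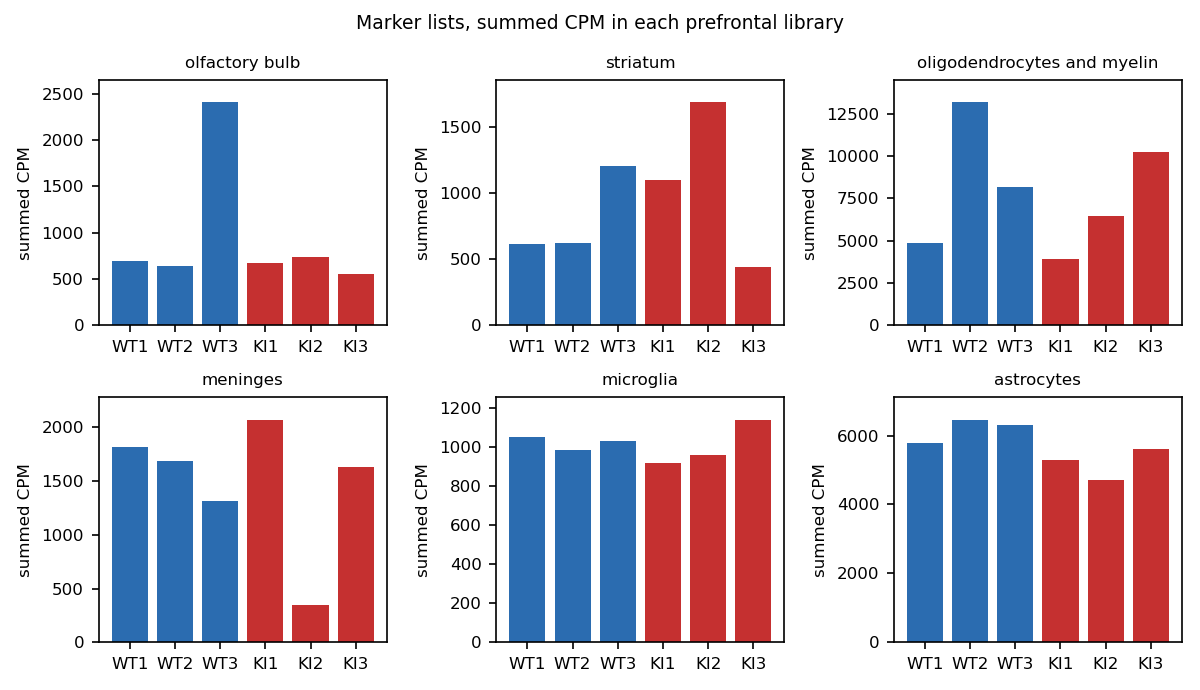
Summed CPM of 6 marker lists (vertical axes, each from 0) in the 3 WT (blue) and 3 KI (red) prefrontal libraries, 1 bar per library. The olfactory bulb list reaches 2406 CPM in WT replicate 3 and at most 737 CPM elsewhere, the striatal list is at 1683 CPM in KI replicate 2 and 441 CPM in KI replicate 3, and the meningeal list is at 346 CPM in KI replicate 2.

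The amount of Tbp mRNA, which checks for a change in expression of the mutated gene and not for the expansion itself, was 37.4 ± 4.39 CPM in WT and 33.7 ± 1.98 CPM in KI prefrontal cortex (SD, n = 3 each). The ranges overlapped, at 33.5 to 42.1 CPM in WT and 32.0 to 35.9 CPM in KI. The difference of -0.14 on the log2 scale had a two-sided exact permutation p of 0.2, where 3 against 3 libraries cannot give less than 0.1. In edgeR's fit the log2 change of Tbp was -0.15 (adjusted p = 0.921), and -0.06 without WT replicate 3. Inpp5a, which encodes a phosphatase that removes a phosphate from IP3 and was a gene of interest in the study, was at 67.4, 62.5 and 72.2 CPM in WT and 63.3, 65.5 and 59.9 CPM in KI prefrontal cortex. These ranges overlapped too, and the log2 change of -0.10 ± 0.12 (SE) had an adjusted p of 0.973. It was -0.05 without WT replicate 3. In the cerebellum its log2 change was -0.51 (adjusted p = 0.0275).

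KI and WT prefrontal cortex differed in 18 of 16841 genes (0.107%) at an adjusted p under 0.05, of which 15 (0.0891%) were higher and 3 (0.0178%) were lower in KI. The test was the quasi-likelihood test of edgeR, with P values adjusted by Benjamini-Hochberg over all genes tested, with 1 estimate of the spread per gene over the 19 libraries, and all adjusted p values of the comparison come from it. Of the 15 higher genes, 13 were in lists of the interferon pathway, and the other 2 were Polr2a, the largest subunit of RNA polymerase II, and Tagap, a GTPase-activating protein gene of T cells. The lower genes were Kcnj10, the potassium channel Kir4.1 of astrocytes, Rflnb, a filamin-binding protein gene, and Gm8210, a processed pseudogene. At an unadjusted p under 0.05 there were 998 of 16841 genes, 426 higher and 572 lower. These counts and the shares above are the background for the list counts given below. The median log2 change of all genes tested was 0.0019. When each of the 6 prefrontal libraries was left out in turn, 5 of the 18 genes were called by edgeR in every fit (Gm8210, Irf9, Oasl2, Polr2a and Rtp4). The calls of 6 genes were lost in 5 or 6 of these fits (Ifi44, Kcnj10, Oas1a, Oas1g, Rflnb and Tagap). Of the 5 genes kept in every such fit, none was called by edgeR on the prefrontal libraries alone. Limma voom with sample quality weights did not call Oasl2 or Rtp4. With the replicate number as a block, edgeR did not call Gm8210 or Polr2a.

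**Figure D2:**
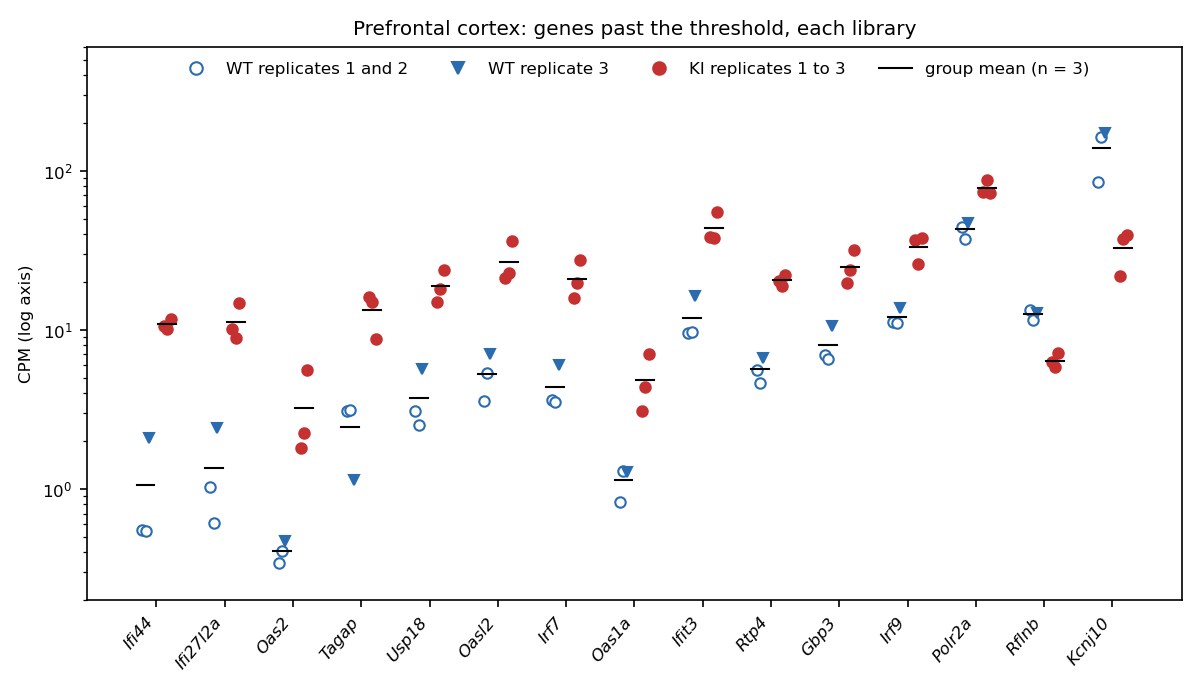
CPM on a log axis of 15 of the 18 genes past the threshold in each prefrontal library, with WT in blue (replicate 3 as a triangle), KI in red and the group mean as a bar (n = 3). All KI points lie above all WT points for the higher genes and below them for Kcnj10 and Rflnb. Gm8210 and Oas1g are left out because they hold libraries at 0, and 1 further gene is not shown.

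Transcription factors that carry the interferon signal to the genome were among the called genes. Irf9 (chr14:55603571-55610030 of GRCm38), the DNA-binding subunit of the complex named above, was at 36.5, 26.1 and 37.5 CPM in KI and at 11.2, 11.1 and 13.8 CPM in WT prefrontal cortex. Every KI library was above every WT library, and Irf9 rose by 1.47 ± 0.18 (log2, SE) with an adjusted p of 0.00305. Irf7 (chr7:141262706-141266481), which amplifies type I interferon production, was at 15.8, 19.7 and 27.5 CPM in KI and 3.63, 3.53 and 6.00 CPM in WT. KI replicate 3 and WT replicate 3 were the highest of their groups, the groups did not overlap, and the log2 rise was 2.25 ± 0.36 (adjusted p = 0.0158). Stat2 did not pass the threshold, at 47.8, 41.6 and 41.0 CPM in KI and 32.4, 33.7 and 31.2 CPM in WT (log2 change 0.42, adjusted p = 0.207). Of the 15 tested members of the IRF and STAT list, 3 rose and none fell, beside 0.0891% higher over all genes. The median log2 change of the list was 0.24.

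Upstream and downstream of these factors the picture was uneven. None of the 13 listed interferon genes had enough reads to be tested, and 12 of them had 0 reads in all 6 prefrontal libraries, which at this depth does not show that the genes are silent. Of the 13 tested receptors, JAK kinases and feedback genes only Usp18 passed the threshold in the prefrontal cortex, and the median of that list was 0.05. It was -0.0042 without WT replicate 3. Ifnar1, a chain of the type I interferon receptor, was at 62.1, 52.8 and 57.5 CPM in KI and 73.2, 68.9 and 59.4 CPM in WT, with overlapping groups and a log2 change of -0.23 (adjusted p = 0.848). Usp18 (chr6:121245906-121270917), which strips ISG15 from proteins and dampens signalling at the receptor, was at 14.9, 18.1 and 23.9 CPM in KI and 3.08, 2.51 and 5.66 CPM in WT. The lowest KI library was more than the highest WT library, and Usp18 rose by 2.33 ± 0.38 (adjusted p = 0.0158). Of the 15 tested nucleic acid sensors none passed the threshold by edgeR and 3 did by DESeq2 with all 6 libraries (Ddx58, Dhx58 and Ifi204). At an unadjusted p under 0.05 by edgeR 8 were higher and none lower, beside 426 higher and 572 lower of 16841 genes. The median log2 change of the sensors was 0.50. Ddx58, which encodes the RNA sensor RIG-I, was at 9.21, 9.52 and 14.1 CPM in KI and 4.86, 4.89 and 6.61 CPM in WT (log2 change 1.00, adjusted p = 0.118). DESeq2 called 1 sensor without WT replicate 1, 1 without WT replicate 2 and 3 without WT replicate 3.

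Among the effectors, the oligoadenylate synthetases, enzymes that sense double-stranded RNA, were described first. Of 8 tested members 4 rose and none fell, beside 0.0891% higher over all genes, and the median log2 change was 2.15. Oasl2 (chr5:114896936-114912234) was at 21.2, 22.7 and 36.0 CPM in KI and 3.56, 5.36 and 7.01 CPM in WT. Its groups were far apart, and the log2 rise was 2.32 ± 0.31 (adjusted p = 0.00305). Oas2 (chr5:120730333-120749853) was at 1.82, 2.25 and 5.61 CPM in KI and 0.342, 0.407 and 0.472 CPM in WT, so KI replicate 3 was well above the other KI libraries. The log2 rise was 2.94 ± 0.46 (adjusted p = 0.0151). Oas1a (chr5:120896256-120907521) was at 3.09, 4.35 and 7.06 CPM in KI and 0.822, 1.29 and 1.28 CPM in WT and rose by 2.07 ± 0.36 (adjusted p = 0.0246). Oas1g (chr5:120876142-120887613) had 39 reads over the KI and 1 over the WT libraries, a ratio of 42.9 after scaling with an exact 95% interval of 7.26 to 1736 for counting error alone, and its adjusted p was 0.0402. Oas1a and Oas1g are neighbouring copies that may share reads, so their separate values are uncertain.

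In the ISG15 system and IFI27 group, 4 of 22 tested genes rose and none fell by edgeR, beside 0.0891% higher over all genes. DESeq2 called 8 of the 22 higher with all 6 libraries, beside 33 of 16841 genes. It called 7 of them in each fit without 1 WT library. The median log2 change of the group was 1.20. Rtp4 (chr16:23520291-23614222), a chaperone of G protein-coupled receptors, was at 20.4, 18.8 and 22.3 CPM in KI and 5.62, 4.61 and 6.67 CPM in WT. The spread within each genotype was small, and Rtp4 rose by 1.86 ± 0.25 (adjusted p = 0.00305). Ifi27l2a (chr12:103442167-103443680), which encodes a small mitochondrial protein, was at 10.1, 8.84 and 14.7 CPM in KI and 1.03, 0.611 and 2.43 CPM in WT and rose by 3.03 ± 0.50 (adjusted p = 0.0168). Ifi44 (chr3:151730922-151749960) was at 10.6, 10.1 and 11.7 CPM in KI and 0.548, 0.543 and 2.09 CPM in WT. WT replicate 3 was again the highest WT library, and the log2 rise of 3.34 ± 0.60 (adjusted p = 0.0379) became 4.29 without it (adjusted p = 0.0201). Leaving out any of the other 5 prefrontal libraries ended the call of Ifi44, with adjusted p values between 0.0832 and 0.16. Isg15 itself, the ubiquitin-like modifier, did not pass the threshold by edgeR, at 3.33, 5.69 and 6.29 CPM in KI and 1.51, 1.22 and 1.62 CPM in WT (log2 change 1.80, adjusted p = 0.223). DESeq2 called Isg15 with all 6 libraries but not without WT replicate 2 or 3.

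Ifit3 (chr19:34583531-34588731), of the family that binds foreign RNA ends, was at 38.4, 37.6 and 54.7 CPM in KI and 9.59, 9.70 and 16.3 CPM in WT and rose by 1.87 ± 0.30 (adjusted p = 0.0158). It was the only gene called by edgeR of 10 tested IFIT and IFITM genes, whose median log2 change was 0.45. DESeq2 called 3 of the 10 (Ifit1, Ifit3 and Ifit3b) with all 6 libraries, and 3 in each fit without 1 WT library. Ifit1 was at 21.1, 24.6 and 31.7 CPM in KI and 5.48, 6.17 and 11.7 CPM in WT without overlap, yet missed the threshold by edgeR (log2 change 1.73, adjusted p = 0.123). Gbp3 (chr3:142560026-142573209), a guanylate-binding GTPase that attacks the membranes around pathogens, was at 19.6, 23.7 and 31.6 CPM in KI and 6.92, 6.51 and 10.6 CPM in WT and rose by 1.64 ± 0.26 (adjusted p = 0.0158). All 17 tested interferon-inducible GTPases had a log2 change above 0, with a median of 0.97, although Gbp3 alone was called by edgeR. DESeq2 called 2 of the 17 (Gbp3 and Gbp9) with all 6 libraries, and 2, 3 or 4 without WT replicate 1, 2 or 3. Ifit3 and Ifit3b, and the guanylate-binding genes, have close copies that may share reads. Of the 23 TRIM, PARP and nuclear body genes and the 21 MHC class I and peptide-loading genes, none passed the threshold by edgeR. With all 6 libraries DESeq2 called 3 of the first list (Sp100, Trim12c and Trim25) and none of the second. Without WT replicate 1, 2 or 3 it called 0, 1 or 3 of the first list, and without WT replicate 3 it called H2-K1 of the second. At an unadjusted p under 0.05, 11 and 7 of them were higher, respectively, and none was lower, beside 426 higher and 572 lower of 16841 genes. The medians were 0.70 and 0.21. H2-K1, a classical MHC class I heavy chain, was at 44.2, 82.2 and 93.8 CPM in KI and 27.9, 32.9 and 53.7 CPM in WT, and the groups overlapped because KI replicate 1 was below WT replicate 3 (log2 change 0.94, adjusted p = 0.464).

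Over the 10 lists of the pathway together, 13 of 143 tested genes rose and none fell by edgeR, beside 0.0891% higher over all genes. The 10 lists were chosen with earlier results of these data known. All 13 genes are also on the study's list of 28 described below, so these counts are not independent evidence of direction. All KI libraries were above all WT libraries for 60 of the 143 genes and below them for 2, where the background was 4.38% above (737 genes) and 4.32% below (727 genes). The median log2 change of the 143 genes was 0.61, and 0.83 without WT replicate 3. Their summed level was 3390, 3688 and 4056 CPM in KI and 2952, 2919 and 2953 CPM in WT. The 3 KI sums were all higher, and KI replicate 3 had the highest of the group. KI replicate 3 was the highest KI library for 12 of the 15 called higher genes, and WT replicate 3 was the highest WT library for 13 of them. The study had listed 28 genes as raised in all 3 regions. In the prefrontal cortex 14 of these passed the threshold by edgeR, and DESeq2 called 26 of the 28 with all 6 libraries. Without WT replicate 1, 2 or 3 DESeq2 called 20, 20 or 24 of them. For all 28 the KI libraries lay above the WT libraries (median log2 change 1.73). That list was chosen on these same samples and is not independent evidence of its direction. Lgals3bp, a secreted glycoprotein gene on that list, was nearest edgeR's threshold among the higher genes that missed it. It was at 60.9, 57.4 and 92.0 CPM in KI and 15.3, 18.2 and 29.6 CPM in WT (log2 change 1.73, adjusted p = 0.0652 by edgeR). DESeq2 called it with all 6 libraries.

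**Figure D3:**
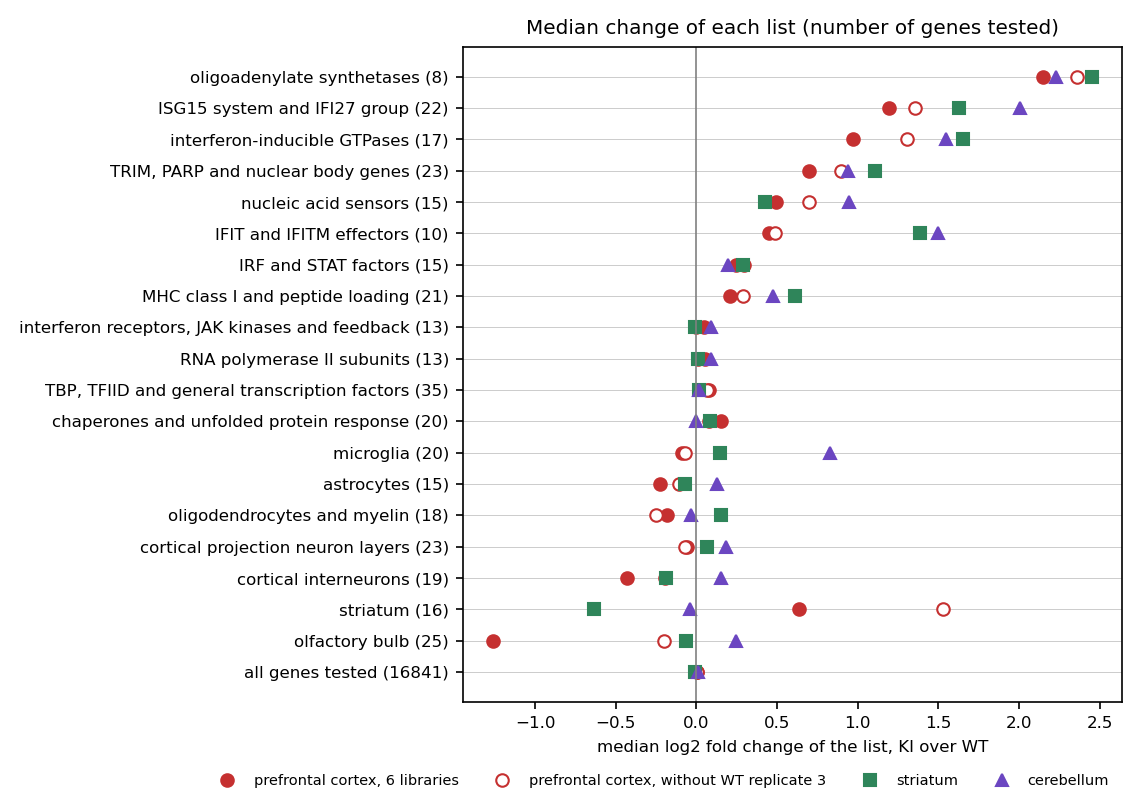
Median log2 fold change of KI over WT (horizontal axis) for each gene list, with the number of genes tested in parentheses, in the prefrontal cortex with 6 libraries (filled circles) and without WT replicate 3 (open circles), in the striatum (squares) and in the cerebellum (triangles). The oligoadenylate synthetase list has a prefrontal median of 2.15, all genes tested lie at 0.0019, and the olfactory bulb list moves from -1.26 to -0.20 when WT replicate 3 is left out.

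The upstream sequence of the called genes was read to show which of them carry the core of an interferon-stimulated response element. Of the 18 called genes, 12 had a promoter in the RefSeq table (GRCm38), and the 250 bases before each start were searched on both strands for GAAA followed after any 2 bases by GAAA, counting overlapping matches. The core was found upstream of 4 of the 10 higher genes with a promoter, and of 3.10% of the 12406 tested genes with a promoter. The windows are given in the direction of transcription, with the matched bases in capitals (read as TTTC where the match is on the opposite strand):
Gbp3, chr3:142559984-142560029, + strand: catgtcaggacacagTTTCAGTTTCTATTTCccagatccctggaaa
Ifit3, chr19:34583358-34583431, + strand: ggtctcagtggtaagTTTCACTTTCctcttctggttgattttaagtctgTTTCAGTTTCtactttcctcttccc
Oas1a, chr5:120907526-120907560, - strand: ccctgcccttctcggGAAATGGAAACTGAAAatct
Oas1g, chr5:120887614-120887646, - strand: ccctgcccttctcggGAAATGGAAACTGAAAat
The Gbp3 window belongs to 1 of the 2 starts listed for that gene. Each of the 4 windows held 2 matches, which overlap in Gbp3, Oas1a and Oas1g, and the Oas1g window is contained whole in the Oas1a window. The windows of Irf7, Irf9, Oasl2 and Ifi44 held no match to these letters. The TATA box, to which TBP binds, was searched as TATAAA on both strands and was in 4 of the 10 windows (Gbp3, Irf7, Oasl2 and Polr2a), beside 8.33% of the tested genes with a promoter. Read in the direction of transcription and 20 to 40 bases before the start, it was found for Irf7 and Polr2a, and for 1.64% of tested genes. These windows are shown with the box in capitals:
Irf7, chr7:141266428-141266483, - strand: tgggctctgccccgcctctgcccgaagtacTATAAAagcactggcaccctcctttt
Polr2a, chr11:69758641-69758696, - strand: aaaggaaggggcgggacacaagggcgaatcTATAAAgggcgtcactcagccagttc
A match describes the letters only and is not a measured binding site.

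Polr2a (chr11:69733997-69758637), the catalytic subunit of RNA polymerase II, was at 73.3, 88.0 and 72.6 CPM in KI and 44.3, 37.2 and 47.1 CPM in WT prefrontal cortex. The groups were well separated, and Polr2a rose by 0.86 ± 0.11 (log2, adjusted p = 0.00305), the smallest change among the called higher genes. It was the single called member of 13 RNA polymerase II subunit genes, whose median log2 change was 0.05, and 0.01 without WT replicate 3. None of the 35 tested genes of TBP, TFIID and the general transcription factors passed the threshold by edgeR, DESeq2 called Taf9b alone and lost it without WT replicate 3, and 2 were higher at an unadjusted p under 0.05. Taf9b, a TFIID subunit, was at 64.4, 67.8 and 67.8 CPM in KI and 54.7, 55.0 and 51.3 CPM in WT (log2 change 0.31, adjusted p = 0.118). Of the 88 tested genes within 1 Mb of Polr2a none was called by edgeR or DESeq2, with 6 at an unadjusted p under 0.05 by edgeR.

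Tagap (chr17:7926000-7934897) was at 16.0, 15.1 and 8.81 CPM in KI and 3.08, 3.12 and 1.15 CPM in WT, and its log2 rise was 2.44 ± 0.40 (adjusted p = 0.0168). Tagap1, a similar gene on the same chromosome (chr17:6955011-6961156), had the opposite order, at 20.9, 19.9 and 31.7 CPM in KI and 42.5, 42.8 and 43.1 CPM in WT (log2 change -0.83, adjusted p = 0.36). Within KI, replicate 3 had the lowest Tagap and the highest Tagap1. Within WT, replicate 3 also had the lowest Tagap, but Tagap1 was nearly even over the 3 libraries. When the reads of both were summed, the levels were 36.9, 34.9 and 40.6 CPM in KI and 45.5, 45.9 and 44.2 CPM in WT, and the log2 change was -0.27 with an adjusted p of 0.753. How the counting divided reads between the pair was not tested, and the rise of Tagap holds only for reads counted on it alone. Tagap lies on the chromosome that carries Tbp, and of its 19 tested neighbours within 1 Mb none was called by edgeR, with 4 at an unadjusted p under 0.05, Tagap1 among them. DESeq2 called 1 of the 19, Tagap1, as lower in KI (adjusted p = 0.0424). The edgeR call of Tagap was lost in 5 of the 6 fits with a library left out.

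Kcnj10 (chr1:172341210-172374085), which clears extracellular potassium around neurons, was at 21.9, 37.0 and 39.3 CPM in KI and 84.9, 163 and 172 CPM in WT. Every KI library was below every WT library, with WT replicate 1 and KI replicate 1 the lowest of their groups, and Kcnj10 fell by 2.10 on the log2 scale (SE 0.36, adjusted p = 0.0246). The log2 change without WT replicate 3 was -1.93 (adjusted p = 0.0866), and leaving out any of 5 of the 6 prefrontal libraries ended the call. It was the only called gene of 15 tested astrocyte markers, whose median log2 change was -0.23, and -0.11 without WT replicate 3. The summed astrocyte level was 5279, 4705 and 5614 CPM in KI and 5772, 6464 and 6301 CPM in WT, and its part in the fall of Kcnj10 was not tested. Aldoc, a glycolytic enzyme gene of astrocytes, was at 1550, 1384 and 1681 CPM in KI and 1884, 2217 and 1881 CPM in WT (log2 change -0.37, adjusted p = 0.591). Gfap overlapped between genotypes (log2 change -0.56, adjusted p = 0.893), and none of 21 reactive astrocyte genes was called by edgeR or DESeq2, with 2 higher at an unadjusted p under 0.05 by edgeR.

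Rflnb (chr11:76019194-76027782) was at 6.24, 5.84 and 7.16 CPM in KI and 13.4, 11.5 and 12.7 CPM in WT. The groups did not overlap, and Rflnb fell by 0.97 (log2, SE 0.18, adjusted p = 0.0437). Leaving out any of the 6 prefrontal libraries ended the call, with adjusted p values between 0.0968 and 0.222. Gm8210 (chr1:43189156-43189638) had 0 reads in the 3 KI libraries and 30, 16 and 34 reads in the WT libraries. Taking 3 reads over the KI group as the floor, it was at least 24.3-fold lower in KI (adjusted p = 0.00305). As a processed pseudogene it may share reads with its parent gene, so its level is uncertain. None of the 19 tested genes within 1 Mb of Gm8210, the 33 of Kcnj10 and the 42 of Rflnb was called by edgeR or DESeq2, with 1, 3 and 2 at an unadjusted p under 0.05 by edgeR.

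The prefrontal change was set beside the change in the other regions from the same fit, which treated all 19 libraries as independent. By Xist and Y-linked reads, prefrontal and striatal libraries of the same genotype and replicate number had the same sex. The cerebellar libraries did not all match them. If mice were shared, the regions would not be independent in the overlaps and tests between regions below. Sharing of mice was not tested. In the striatum 66 genes (0.392%) and in the cerebellum 87 genes (0.517%) were higher in KI. Of the 18 genes called in the prefrontal cortex, 15 were also called in the striatum, 13 in the cerebellum and 13 in both. The interferon lists held 48 called genes in the striatum and 48 in the cerebellum, with medians of 1.11 and 0.98, against 13 and 0.61 in the prefrontal cortex. For 13 of the 15 higher genes the prefrontal log2 change was smaller than the striatal one, and for 11 it was smaller than the cerebellar one. Rtp4 changed by 1.86 in the prefrontal cortex, 3.15 in the striatum and 2.74 in the cerebellum. Polr2a was close to even, at 0.86, 0.94 and 0.97. Oas2 went the other way, with 2.94 in the prefrontal cortex, 1.96 in the striatum (adjusted p = 0.0539) and 1.70 in the cerebellum (adjusted p = 0.0561).

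The difference between regions was tested itself. No gene differed between the prefrontal and the striatal KI effect (0%) by edgeR's interaction test, where the smallest adjusted p was 0.254 and 743 genes had an unadjusted p under 0.05. The interaction test of limma voom gave 0 genes as well, with 817 at an unadjusted p under 0.05. Against the cerebellum 3 genes differed by edgeR (0.0178%), and none of them was among the 18. Voom called 1 gene there, Fam163b, and edgeR with the replicate block called Kcnj10 alone. At an unadjusted p under 0.05, 5 of the 18 genes differed from the striatum and 6 from the cerebellum. A smaller rise in the prefrontal cortex was therefore not shown for any called gene. Kcnj10 changed by -2.10 in the prefrontal cortex, -1.79 in the striatum (adjusted p = 0.0299) and -0.49 in the cerebellum (adjusted p = 0.673), and Rflnb by -0.97, -0.59 and -0.61. Tagap changed by 2.44, by 1.60 in the striatum (adjusted p = 0.0912) and by 0.07 in the cerebellum (adjusted p = 0.983). Oas2, Tagap and Rflnb were past the threshold in the prefrontal cortex alone, but their differences from the other regions were not past it.

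**Figure D4:**
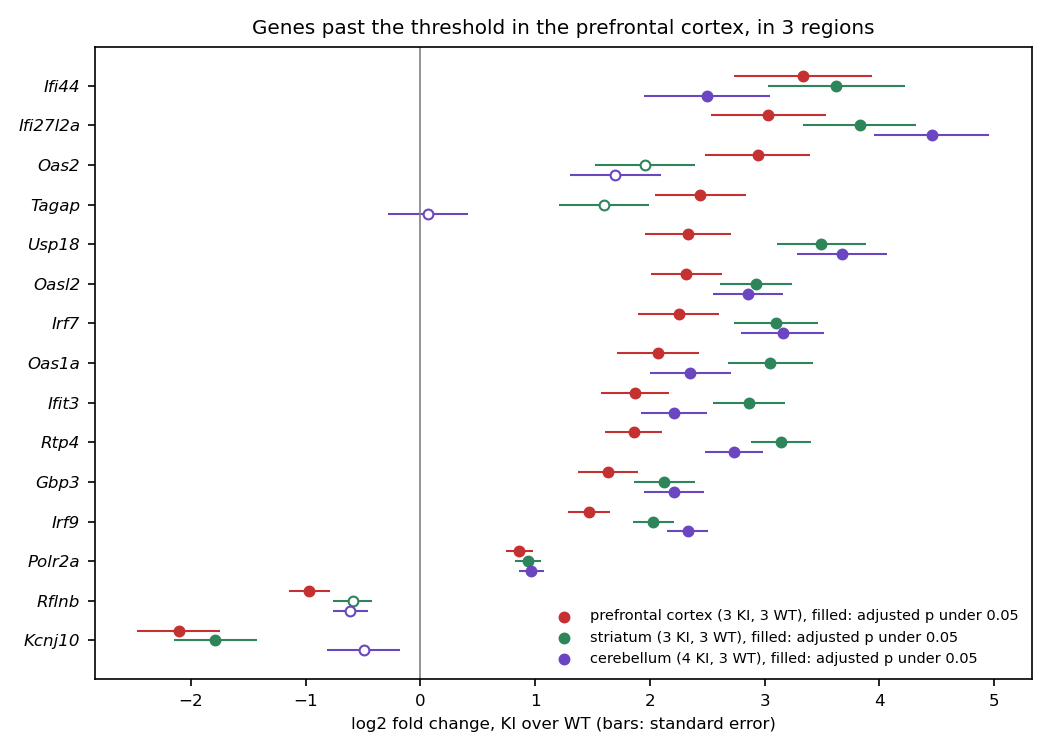
Log2 fold change of KI over WT (horizontal axis, bars show the SE) for 15 of the 18 genes called in the prefrontal cortex, in 3 regions by colour, filled where the adjusted p is under 0.05. Most higher genes lie further right in the striatum and cerebellum, Oas2 lies furthest right in the prefrontal cortex, and Tagap is at 0.07 and Kcnj10 at -0.49 in the cerebellum. Gm8210 and Oas1g are left out because they hold libraries at 0, and 1 further gene is not shown.

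Apart from Kcnj10, no marker gene of neurons or glia passed the threshold. The background for the unadjusted counts given here is 426 higher and 572 lower of 16841 genes. None of 23 cortical projection neuron genes, 15 frontal area genes, 19 immediate early genes or 18 oligodendrocyte genes was called by edgeR or by DESeq2 with all 6 libraries, and at an unadjusted p under 0.05 by edgeR there was 1 lower projection neuron gene and none in the other 3 lists. The interneuron list had no called gene of 19 by either tool, and 4 lower at an unadjusted p under 0.05, but DESeq2 called Gad1, a GABA synthesis gene, lower without WT replicate 1 and Reln lower without WT replicate 2. Its median log2 change was -0.43, and -0.20 without WT replicate 3, which had Calb2 at 206 CPM against 11.5 to 26.5 CPM in the other libraries. Of 20 chaperone genes none was called by either tool and 1 was higher at an unadjusted p under 0.05. The immediate early genes, which follow recent neuronal activity, summed to between 1130 and 3069 CPM over the 6 libraries, and the oligodendrocyte genes to between 3906 and 13170 CPM, with both genotypes spread over the range. None of the 20 microglial genes was called in the prefrontal cortex by edgeR or DESeq2, 1 was higher and 2 were lower at an unadjusted p under 0.05, and their median log2 change was -0.09. Without WT replicate 2, DESeq2 called Gpr34 lower. In the cerebellum 14 of the same genes were called higher, with a median of 0.83. Ctss, a lysosomal protease gene, was at 111, 152 and 172 CPM in KI and 106, 99.0 and 97.6 CPM in WT prefrontal cortex (log2 change 0.52, adjusted p = 0.427). The summed microglial level was 918, 959 and 1143 CPM in KI and 1055, 986 and 1033 CPM in WT, so the groups overlapped and the highest sum was in KI replicate 3, the library that also led the interferon genes. Its part in their rise was not tested.

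Marker lists of neighbouring tissue moved with single libraries. The olfactory bulb list had no called gene among 25 tested by edgeR. At an unadjusted p under 0.05, however, 15 were lower, beside 572 of 16841 over all genes. None of the 25 had a log2 change above 0, and the median was -1.26. DESeq2 called 7 of them lower. Without WT replicate 3 the median was -0.20, and 10 of the 25 were above 0. DESeq2 then called none of the 25, whereas it called 9 without WT replicate 1 and 9 without WT replicate 2. Why DESeq2 called more of them than edgeR was not tested. Th had a log2 change of -5.15 with all 6 libraries and -1.43 without that library, and Doc2g changed from -4.12 to -0.71. The study's list of genes lower in the prefrontal cortex alone held 13 genes, and of the 12 tested here none passed the threshold by edgeR, although all 12 were lower at an unadjusted p under 0.05 and DESeq2 called all 12. DESeq2 called 9 of the 12 without WT replicate 1, 9 without WT replicate 2 and 1 without WT replicate 3. That gene was the pseudogene Tmem181c-ps, at 0 CPM in the 3 KI libraries and 3.08, 3.26 and 0 CPM in WT. By edgeR the median log2 change of -1.48 became -0.89 without WT replicate 3. Of the 12 genes 7 are also on the olfactory bulb list (Bace2, Dlx6os1, Doc2g, Eomes, Frmd7, Gpr153 and Th). The study's list was chosen on these samples and the olfactory bulb list with earlier results known, so the overlap is not independent evidence. In WT replicates 1 to 3 Gpr153 was at 34.8, 49.9 and 50.8 CPM and Bace2 at 7.46, 5.90 and 10.1 CPM. Neither had the large excess of WT replicate 3 seen for Th. Rasa4, a Ras GTPase-activating protein gene on the study's list, was nearest the threshold, at 7.21, 8.39 and 6.58 CPM in KI and 11.6, 12.0 and 15.6 CPM in WT (log2 change -0.82, adjusted p = 0.0583). The striatal list had a median of 0.64 and, without WT replicate 3, of 1.53, with no gene of 16 called by edgeR or by DESeq2 with all libraries and 2 higher at an unadjusted p under 0.05. DESeq2 called Adora2a, an adenosine receptor gene of striatal neurons, higher without WT replicate 3. Its summed level was 1093, 1683 and 441 CPM in KI and 617, 620 and 1201 CPM in WT, with the genotypes overlapping.

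**Figure D5:**
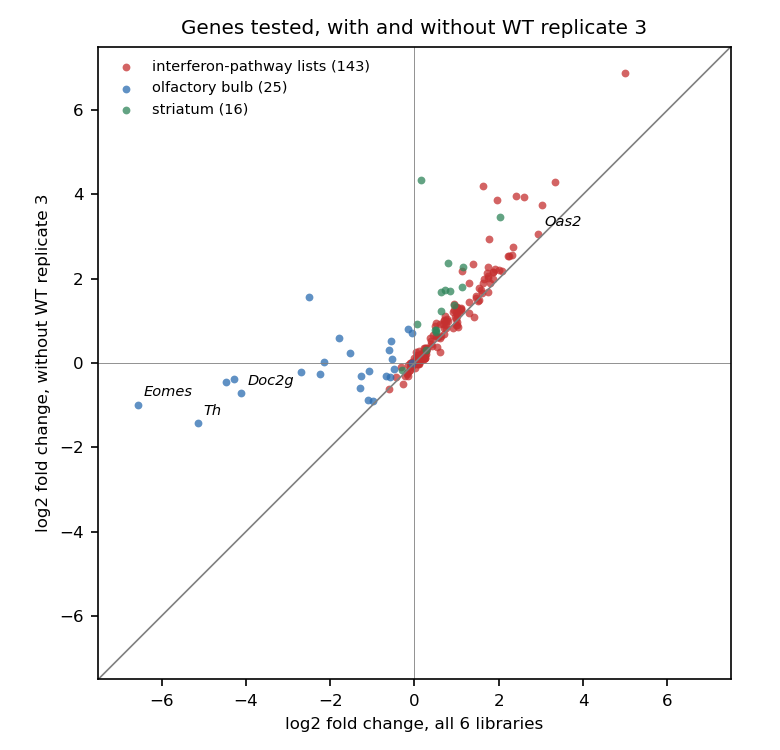
Log2 fold change of KI over WT with all 6 prefrontal libraries (horizontal axis) against that without WT replicate 3 (vertical axis), 1 point per gene, for 143 interferon-pathway (red), 25 olfactory bulb (blue) and 16 striatal (green) genes, with the diagonal of equal values. Olfactory bulb genes such as Th move from -5.15 to -1.43, and the median of the interferon genes moves from 0.61 to 0.83.

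Leaving out WT replicate 3 and testing the same genes by edgeR gave 13 higher and 1 lower gene, and 12 of the 18 genes called with all libraries were called again. Oas2, Tagap, Kcnj10, Oas1a, Oas1g and Rflnb lost the call, with log2 changes of 3.05, 2.10, -1.93 and 2.17 for the first 4 and -0.96 for Rflnb. The other WT libraries held 0 reads of Oas1g, and taking 3 reads over that group as the floor it was at least 9.49-fold higher in KI. Gbp7 and Iigp1, interferon-inducible GTPases, were called only without that library. Iigp1 was at 3.77 CPM in WT replicate 3 and at 0.959 and 0.814 CPM in the other WT libraries, beside 3.15 to 4.64 CPM in KI, and its log2 change went from 1.13 to 2.18. For Gbp7 it went from 0.61 to 0.92. DESeq2 called all 18 genes with 6 libraries, among 33 higher and 19 lower, and all 18 again without WT replicate 3, among 38 higher and 8 lower. It called 17 of the 18 without WT replicate 1 and 17 without WT replicate 2, with Oas1g lost in both fits. The same library thus held olfactory bulb genes and the highest WT level of most called interferon genes, and whether these are linked was not tested.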

How the data were processed

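RNA from 3-month-old mice was sequenced in 19 libraries, grouped by region, genotype and replicate as the labels give them. The authors deposited raw counts for 41128 Ensembl genes and a second table with the same counts divided by a DESeq2 size factor per library, a signal used here only for Tbp. The submitters' processing notes name bcl2fastq 2.17.1.14, STAR 2.5.2b, HTSeq, DESeq2 1.10.1 and GRCm38.p3, while the paper's methods name Cufflinks and Cuffdiff. The use of strand is not given in the sources used here. Gene positions came from GENCODE M21, with 40254 genes matched.

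The test of counts was run with edgeR 4.0.16 in R 4.3.3 (filterByExpr, TMM, quasi-likelihood F-test, 1 mean for each of 6 groups, 13 residual degrees of freedom, biological coefficient of variation 0.191). P values were adjusted by Benjamini-Hochberg over 16841 genes at a threshold of 0.05. The fit was also run on simulated counts, drawn with the same spread for a gene in all groups and no library apart from the rest. That run does not say how the fit handles WT replicate 3. Replicates of a group differed by more than counting noise, so none was treated as a duplicate. Intervals and floors (3 reads) cover counting error alone, since reads without molecular identifiers are not independent.

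Gene lists, comparisons and alternatives were chosen with earlier results of these data known. Genes were named if called in the prefrontal cortex, if nearest the threshold, if listed by the study, if called only without WT replicate 3, or as list members of smallest p or called in another region. Results for 2 genes are not reported here, though both remain in the counts of genes. Fam163b, Tmem128 and the list genes called by DESeq2 only with a library left out were named after their values were seen. Alternatives were DESeq2 1.42.0, its size factors in edgeR, other count filters, the prefrontal libraries alone or with the striatum, robust estimation, limma 3.58.1 voom with sample quality weights, the replicate number as a block, a sex term and each prefrontal library left out. Those with the genes tested held constant, with DESeq2 and a WT library left out, and with Tagap and Tagap1 summed were added after the data had been seen.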

Additional observations from a re-analysis of the deposited data

Results flagged for a closer look

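The KI effect in the prefrontal cortex differed from that in the cerebellum for 3 genes by edgeR's interaction test. Fam163b was at 186 ± 45.95 CPM in WT and 179 ± 32.8 CPM in KI prefrontal cortex (SD, n = 3 each), and at 11.3 ± 1.43 CPM in WT and 41.8 ± 7.47 CPM in KI cerebellum. The prefrontal log2 change was -0.06 (0.15 without WT replicate 3), the cerebellar one was 1.88, and the difference of -1.94 had an adjusted p of 0.00465. C1qa, a complement subunit gene of microglia, changed by -0.10 in the prefrontal cortex and 1.28 in the cerebellum, a difference of -1.38 (adjusted p = 0.0116). Cd68, a lysosomal gene of phagocytes, changed by -0.29 and 1.17, a difference of -1.46 (adjusted p = 0.0116). In the prefrontal cortex none of the 3 genes passed the threshold. The difference for C1qa and Cd68 was no longer called without KI replicate 1, KI replicate 2 or WT replicate 1. With the replicate block none of the 3 was called, and limma voom called Fam163b alone.

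Single libraries stood far from the rest of the 4 cerebellar KI libraries for Tagap and Fam163b. The gap of the outlying library, as a share of the group's range, was 0.964 for Tagap (5.77 to 12.8 CPM) and 0.854 for Fam163b (37.1 to 52.9 CPM). The search covered the 18 genes called in the prefrontal cortex, the 3 that differed from the cerebellum, Tbp and Inpp5a. Chance puts about 1 in 20 groups past this limit, so a gap in some of these genes can arise by chance. The prefrontal groups of 3 libraries could not be tested in this way.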

How the results depend on the processing

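With edgeR over all libraries there were 15 higher and 3 lower genes. DESeq2 gave 33 and 19, and without WT replicate 1, 2 or 3 it gave 37, 34 or 38 higher and 75, 41 or 8 lower genes. The prefrontal libraries alone gave 0 and 0 by edgeR, with 571 genes at an unadjusted p under 0.05, while prefrontal and striatal libraries together gave 8 higher genes and voom with quality weights gave 2 and 1. Leaving out each prefrontal library in turn gave 4 to 15 higher and 1 to 2 lower genes by edgeR. The 4 higher genes came without WT replicate 1 or 2, and 9 came without KI replicate 3. For the difference from the striatum that range was 0 to 1 gene (Tmem128, without KI replicate 1), and for the difference from the cerebellum 1 to 4 genes. The same replicate number did not mark related prefrontal libraries (correlation of deviations 0.172, 0.0898 and -0.0829), and the replicate block gave 8 higher and 1 lower gene and 1 gene, Kcnj10, that differed from the cerebellum. All 18 genes kept their direction under every alternative in which they were tested, except that Tagap summed with Tagap1 was at -0.27. The median of the receptor and JAK list, 0.05, turned to -0.0042, or to -0.003 with the genes filtered anew, without WT replicate 3. The causes were not tested. With the sex term, all 18 genes were called. Genes near 1 CPM, such as Oas1g and Oas2, rested on few reads, and 3 libraries per genotype limit what could be detected.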

Other observations

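The study's list of genes raised in the prefrontal cortex alone held 4 genes, and edgeR called none of them while DESeq2 called all 4. Mthfd1l, which encodes a mitochondrial folate enzyme, was at 14.3, 19.9 and 17.2 CPM in KI and 10.3, 11.1 and 9.23 CPM in WT prefrontal cortex (log2 change 0.74, adjusted p = 0.0985 by edgeR). Trim12c, of the TRIM ubiquitin ligase family, was at 2.61, 1.87 and 3.00 CPM in KI and 0.616, 1.09 and 1.01 CPM in WT (log2 change 1.45, adjusted p = 0.0807 by edgeR). Neither gene's groups overlapped. Without WT replicate 3, DESeq2 called 1 of the 4, Defb11, which had at most 0.182 CPM in the first 2 KI libraries and 0 in the third.

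The inositol phosphate list held 17 genes, phosphatases together with the kinases Itpka and Itpkb and the receptor Itpr1. None of the 17 passed the threshold in the prefrontal cortex by edgeR or by DESeq2 with all libraries. At an unadjusted p under 0.05 by edgeR 1 was higher and 3 were lower. Without WT replicate 1, DESeq2 called Inpp5j lower. The endothelial and pericyte (15 tested), choroid plexus (12), blood (8) and meningeal (10) lists also had no called gene by either tool, with 0, 0, 2 and 1 lower and none higher at an unadjusted p under 0.05. The meningeal sum was 346 CPM in KI replicate 2 and 1312 to 2072 CPM in the other prefrontal libraries.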
